A study of Mus musculus with 11 samples.

Results

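The genes described here are 10 components of the basement membrane, the thin sheet of matrix beneath epithelium and endothelium and around muscle and fat cells. They are the 6 type IV collagen chains (Col4a1 to Col4a6), the nidogens Nid1 and Nid2, and the heparan sulfate proteoglycans Hspg2 (perlecan) and Agrn (agrin). They were chosen by gene symbol, from the GENCODE M21 annotation of the Ensembl identifiers, and are 10 of the 54232 genes in the deposited count table. Of these, 8 passed the filter on low counts and are among the 16536 genes tested, while Col4a3 and Col4a4 did not pass.

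Type IV collagen is assembled inside the cell from chains that combine in fixed groupings, and the secreted trimers join into a network. The Col4a1 and Col4a2 chains form the trimer found in nearly every basement membrane, whereas the Col4a3, Col4a4 and Col4a5 chains form the network of the kidney glomerulus and a few other sites, and Col4a5 with Col4a6 builds a further network in some epithelia and smooth muscle. Nidogens bind both laminin and type IV collagen, and perlecan and agrin bind laminin and carry heparan sulfate chains that hold growth factors.

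The samples were 11 orthotopic pancreatic tumours in C57BL/6 mice, 6 labelled Pkn2KO (replicates A to F) and 5 labelled Pkn2Wt (A to E), here KO and WT. The host mice were female, and every mouse received tamoxifen and carried 1 Rosa26 CreERT2 allele. In KO mice the Cre acted on floxed Pkn2 (fl/fl), whereas WT mice had intact Pkn2 (+/+) with no floxed copy. Pkn2 encodes a serine and threonine kinase of the protein kinase N family. Each mouse was injected in the pancreas with 1000 TB32048 cells, a carcinoma line from a mouse pancreatic tumour model, and these cells kept Pkn2 in both groups. Because the Rosa26 promoter is active in nearly all cells, the deletion is not limited to fibroblasts, and because host and carcinoma cells are both of mouse, a count cannot be assigned to either. The Pkn2 level of a bulk tumour therefore does not check the label of a library. The cells were injected in Matrigel, itself a basement membrane extract, in both groups. The comparison asks how loss of Pkn2 in the host goes with the RNA of basement membrane genes in the tumour.

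Total counts were between 16294128 and 31121422 per tumour. WT replicates A, B and C stood apart from the other libraries: longer genes had lower values in them than across all tumours (Spearman's correlation of deviation against exon length across tested genes, -0.497, -0.447 and -0.172, against 0.0965 to 0.367 in the other 8). They also held the most ribosomal RNA, with 6.39% of counts in WT B against 0.308% to 0.739% in KO tumours. The tested basement membrane genes are long, with 5174 to 14307 exon bases against a median of 3909 over tested genes. The fold changes, ratios and lists below are therefore also given without these tumours, and the fold changes and lists with the length trend removed.

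The collagen genes lie head to head in 3 pairs, each pair starting from a shared region and read outwards in opposite directions, and the sequences between the starts are shown because they are what each pair has in common. Coordinates are of GRCm38. The annotated starts of Col4a1 (minus strand) and Col4a2 (plus strand) overlap by 22 bases, in the first exon of both genes. The capitals in the first line mark these shared bases, which hold 1 match to the GC box GGGCGG. Col4a4 (minus) and Col4a3 (plus) start 71 bases apart, and the second line is the whole sequence between them, with no match to a GC box, to CCAAT or to TATAAA on either strand. Col4a6 (minus) and Col4a5 (plus) start 1308 bases apart. The third line is the 250 bases before Col4a6, read on its own strand, and the fourth the 216 bases before Col4a5, with a GC box in the former and CCAAT in the latter in capitals.
Col4a1 and Col4a2, chr8:11312801-11312830, plus strand: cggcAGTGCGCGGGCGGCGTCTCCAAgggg
Col4a4 and Col4a3, chr1:82586850-82586920, plus strand: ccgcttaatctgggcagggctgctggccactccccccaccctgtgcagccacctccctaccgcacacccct
Before Col4a6, chrX:141474077-141474326, minus strand: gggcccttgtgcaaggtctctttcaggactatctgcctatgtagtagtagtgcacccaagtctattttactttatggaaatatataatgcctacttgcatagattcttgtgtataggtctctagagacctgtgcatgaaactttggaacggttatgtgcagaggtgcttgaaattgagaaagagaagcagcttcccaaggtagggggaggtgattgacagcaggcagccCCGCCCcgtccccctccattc
Before Col4a5, chrX:141475169-141475384, plus strand: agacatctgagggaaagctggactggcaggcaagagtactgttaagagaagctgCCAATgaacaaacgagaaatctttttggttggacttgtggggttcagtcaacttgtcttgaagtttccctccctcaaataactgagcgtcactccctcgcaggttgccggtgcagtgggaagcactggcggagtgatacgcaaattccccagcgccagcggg

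The same motifs were counted on both strands in RefSeq windows of 300 bases (250 before and 50 after a start, GRCm38.p6), which were matched for 8 of the 10 genes. Across all 32851 windows, 35.7% held a GC box (GGGCGG), 37.4% held CCAAT and 13.6% held TATAAA. The first window of Agrn held 11 GC boxes and a second one held 2. Hspg2 held 5 and Col4a2 held 3, whereas Col4a1, Col4a5, Col4a6 and Nid1 held 1 each and Col4a4 none. CCAAT was present once in the windows of Col4a1, Col4a2, Col4a5 and Nid1. TATAAA was in none of these windows. The windows of Col4a1 and Col4a2 overlap each other, so a match can be counted in both.

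Levels were first compared between the genes, as CPM (counts scaled to library size, with TMM factors) per kb of exon, averaged over all 11 tumours. Col4a1 had the highest level per kb (89.9 ± 39.4, SD, n = 11) and exceeded Col4a2 (60.0 ± 29.5) in 11 of 11 tumours. Col4a2 exceeded Agrn (29.2 ± 12.5) in 10 of 11. Agrn and Nid1 (28.1 ± 10.3) were not separated, Agrn being above in 6 of 11 tumours. Hspg2 followed (10.4 ± 3.82), below Nid1 in 11 of 11. Nid2 (4.67 ± 1.56) and Col4a5 (4.47 ± 2.20) were next and were not separated, Nid2 being above in 6 of 11. Col4a6 (0.366 ± 0.435) lay below Col4a5 and above Col4a4 in all 11 tumours. Col4a4 and Col4a3 were at the limit of detection and were not separated from each other.

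**Figure D1:**
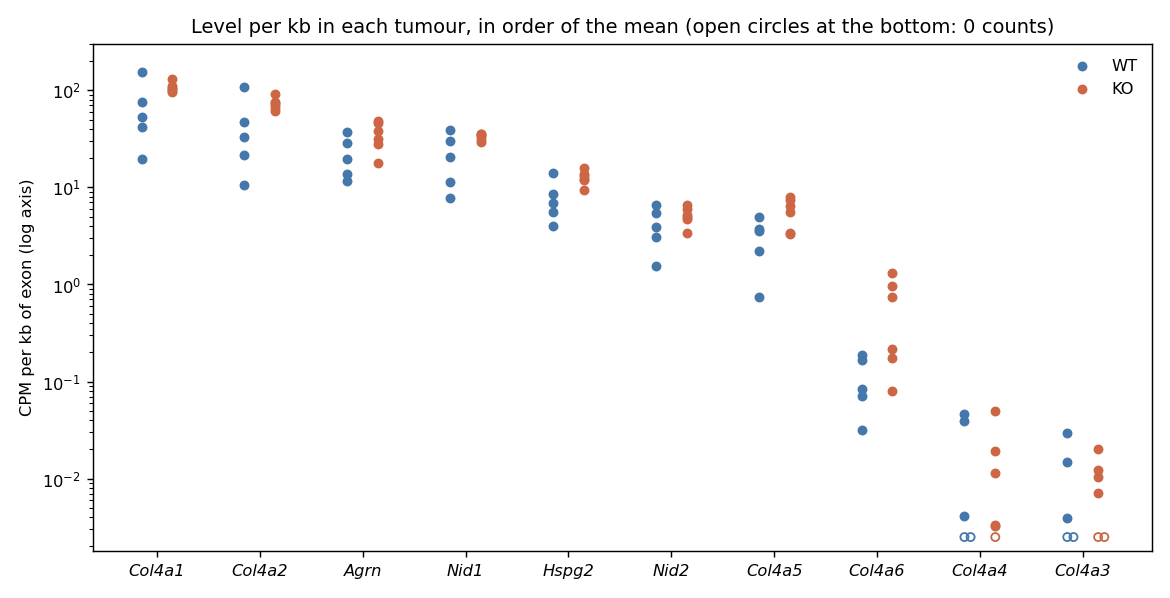
Level of each gene in each tumour, in CPM per kb of exon on a log axis, with WT tumours in blue and KO tumours in orange and open circles for tumours with 0 counts. Col4a1 and Col4a2 stand at the top, and Col4a3 and Col4a4 at the bottom with 0 counts in several tumours of both groups.

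The pair that builds the common network made up nearly all type IV collagen RNA. Per kb, Col4a1 and Col4a2 together held 96.7% ± 1.21 (SD, n = 6) of the summed level of the 6 chains in KO tumours and 96.8% ± 1.55 (n = 5) in WT tumours. Col4a5 and Col4a6 together held 3.33% ± 1.20 and 3.18% ± 1.52. Col4a3 and Col4a4 together held at most 0.0833% in any tumour. The shares of each pair overlapped between the groups.

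Col4a1 was at 710.1, 739, 818, 986, 791 and 764 CPM in KO tumours A to F and at 148, 315, 395, 569 and 1148 CPM in WT tumours A to E. WT E had the highest value of all, and the other 4 WT tumours lay below every KO tumour. The means were 801 ± 98.0 (SD, n = 6) and 515 ± 385 (n = 5) CPM, and the log2 fold change of KO over WT was 0.64 (SE 0.39, edgeR's quasi-likelihood test, unadjusted p = 0.128, adjusted p = 0.332). Col4a1 also belongs to a matrix gene set that the study picked in part from these tumours, so its direction here is not independent evidence.

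Col4a2, whose chain joins that of Col4a1 in the trimer, was at 406, 436, 489.7, 606, 467 and 500.1 CPM in KO tumours A to F and at 70.3, 144, 219, 310.1 and 717 CPM in WT tumours A to E. The pattern was that of its neighbour, with WT E above all KO tumours and the other 4 WT tumours below all of them. The log2 fold change was 0.73 (SE 0.44, edgeR, unadjusted p = 0.125, adjusted p = 0.326). In a bulk tumour, fewer cells of a type and less RNA per cell cannot be told apart, for these genes and for all those below.

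Col4a5 was at 22.3, 37.5, 22.6, 43.1, 52.9 and 49.8 CPM in KO tumours A to F and at 4.95, 14.7, 33.2, 23.9 and 25.1 CPM in WT tumours A to E. KO B, D, E and F lay above every WT tumour and WT A and B below every KO tumour, with the others interleaved. The log2 fold change was 0.90 (SE 0.40, edgeR, unadjusted p = 0.0431, adjusted p = 0.194).

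Col4a6 was at 1.40, 0.632, 1.70, 5.89, 7.76 and 10.4 CPM in KO tumours A to F, from 40, 18, 49, 145, 191 and 259 counts. In WT tumours A to E it was at 0.564, 0.250, 1.33, 0.666 and 1.51 CPM, from 13, 3, 27, 17 and 51 counts. The KO tumours spread over 16.5-fold, with D, E and F high and A, B and C within or close to the WT range. The log2 fold change, 2.39 (SE 0.72, edgeR, unadjusted p = 0.00539, adjusted p = 0.101), was the largest of the 8, and DESeq2 called it higher (2.42, adjusted p = 0.00809) in a comparison where it called 3.19% of genes higher.

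Col4a3 had 2, 0, 3, 3, 0 and 5 counts in KO tumours A to F and 0, 0, 6, 1 and 5 in WT tumours A to E. Col4a4 had 1, 0, 1, 5, 3 and 13 counts in KO tumours and 1, 0, 10, 0 and 14 in WT tumours. A count of 0 allows a level of up to 3 counts, which was 0.0887 to 0.250 CPM depending on the tumour. For Col4a3 and Col4a4 no difference between the groups was detectable at this depth.

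Nid1, which links laminin to type IV collagen, was at 237, 241, 220.1, 246, 201 and 246 CPM in KO tumours A to F and at 54.1, 79.4, 144, 211 and 268 CPM in WT tumours A to E. The KO tumours differed by 1.22-fold from lowest to highest and the WT tumours by 4.95-fold, and WT E was again above every KO tumour. The log2 fold change was 0.62 (SE 0.34, edgeR, unadjusted p = 0.0890, adjusted p = 0.274).

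Nid2, its less abundant relative, was at 17.5, 25.6, 24.5, 30.9, 34.2 and 26.6 CPM in KO tumours A to F and at 7.98, 16.1, 20.4, 27.9 and 34.2 CPM in WT tumours A to E. Its groups overlapped more than those of Nid1, since WT C, D and E all lay within the KO range. The log2 fold change was 0.31 (SE 0.31, edgeR, unadjusted p = 0.327, adjusted p = 0.549), the smallest of the 8. It was 0.10 without WT A and 0.55 without WT E.

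Hspg2, which encodes perlecan, was at 133, 173, 168, 224, 187 and 199 CPM in KO tumours A to F and at 56.6, 79.2, 99.5, 123 and 199.7 CPM in WT tumours A to E. As for the first collagen pair, 4 WT tumours lay below every KO tumour, and WT E lay between KO F and KO D. The log2 fold change was 0.69 (SE 0.28, edgeR, unadjusted p = 0.0259, adjusted p = 0.157). Its transcript is the longest of the 10, and 97.4% of tested genes had fewer exon bases.

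Agrn, known for organising the neuromuscular junction and expressed in many epithelia, was at 445, 295, 259, 358, 426 and 164 CPM in KO tumours A to F and at 128, 109, 182, 349 and 263 CPM in WT tumours A to E. KO A, D and E were above every WT tumour, whereas KO F was among the low ones. The log2 fold change was 0.65 (SE 0.33, edgeR, unadjusted p = 0.0688, adjusted p = 0.241).

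**Figure D2:**
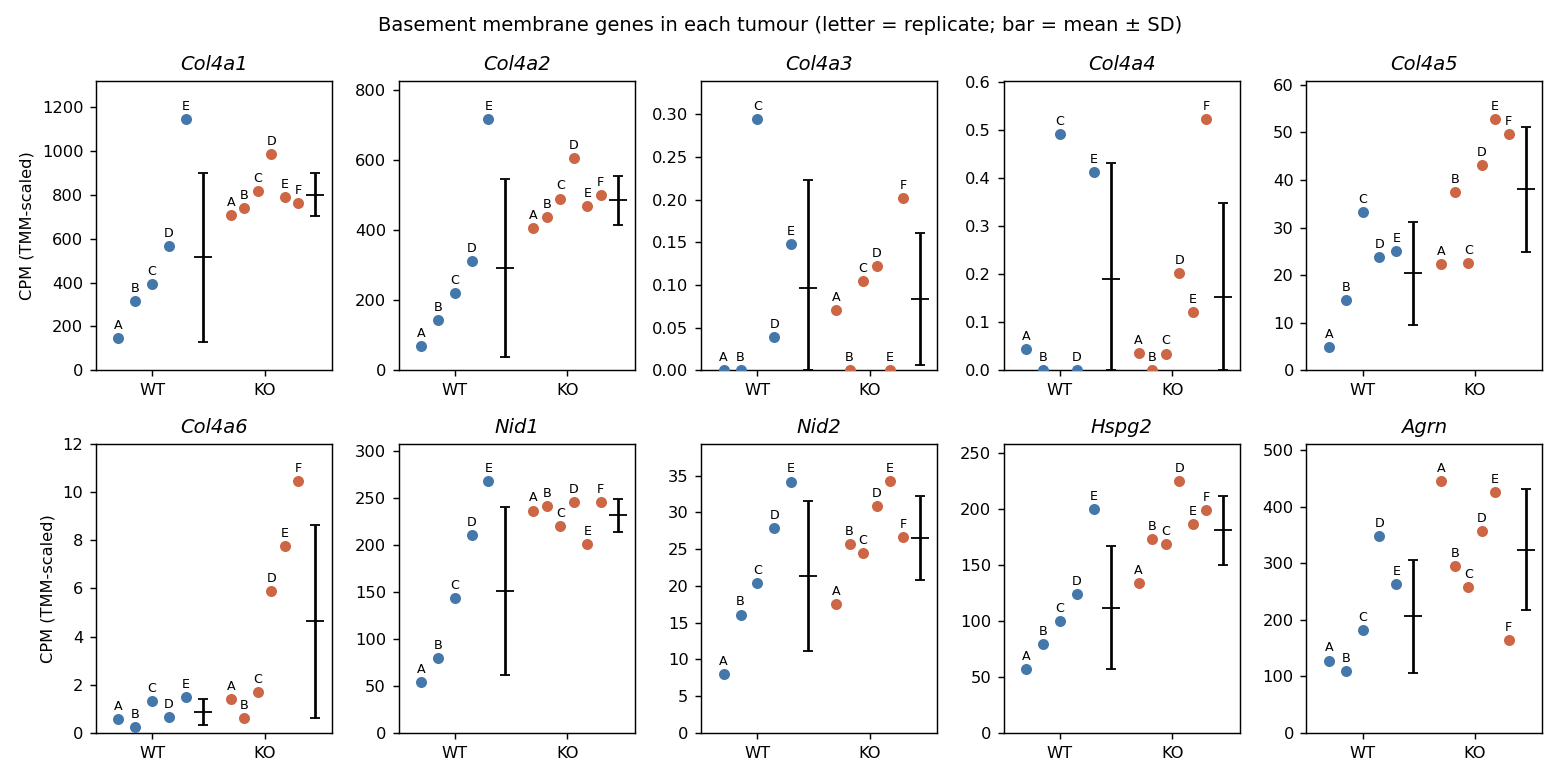
CPM of each of the 10 genes in each tumour on linear axes starting at 0, with WT in blue, KO in orange, letters for replicates and black bars for the mean ± SD (cut at 0 where the SD exceeds the mean). The KO tumours sit close together for Col4a1, Col4a2 and Nid1, while the WT tumours spread from far below them to WT E above them.

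Across the 8 tested genes, edgeR called 0 higher and 0 lower in KO tumours at an adjusted p under 0.05, against 0.0181% of all tested genes called higher and 0% lower. At an unadjusted p under 0.05, 3 of the 8 were higher (Col4a5, Col4a6 and Hspg2) and 0 lower, against 8.57% and 15.5% of all tested genes. DESeq2 called 1 of the 8, Col4a6. The fitted mean was higher in KO for 8 of 8 genes, against 48.0% of all tested genes, and the median log2 fold change was 0.67 against -0.026. The CPM ranges of the groups overlapped for all 10 genes, whereas 1.59% of tested genes had every KO tumour above every WT tumour and 2.01% every one below. At least 4 WT tumours lay below every KO tumour for Col4a1, Col4a2 and Hspg2, a pattern that 7.46% of tested genes had.

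The calls depended on which WT tumours were included. Without WT E, edgeR called Col4a1 (log2 fold change 1.17, adjusted p = 0.0366), Col4a2 (1.38, adjusted p = 0.0332) and Hspg2 (1.01, adjusted p = 0.0299) higher in KO, in a fit that called 3.63% of all genes higher. WT E had the highest WT value of each of these genes. The WT group of that fit was WT D with WT A, B and C, the libraries set apart above. Without WT A, B and C, 4 of the 8 genes were lower in KO (Col4a1 at -0.10, Col4a2 at -0.081, Nid1 at -0.042 and Nid2 at -0.22), Hspg2 was at 0.16 and Agrn at 0.089, the median log2 fold change was 0.024, and none was called in a fit that called 0.0227% of all genes higher and 0.017% lower. That fit had 2 WT tumours only, and in it 51.0% of 17605 genes were higher in KO, with a median of 0.011. Leaving out WT A alone lowered the log2 fold change to 0.40 for Col4a1, 0.48 for Col4a2 and 0.40 for Nid1, with none called. With the length trend removed in each tumour, 8 of 8 genes were still higher in KO, with a median of 0.54. Of all genes, 48.2% were higher in that fit, with a median of -0.019. A covariate for the share of ribosomal RNA left 8 of 8 higher, with a median of 0.39, against 48.0% of all genes and -0.016. The part of RNA quality and of gene length in these differences beyond those values was not tested.

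**Figure D3:**
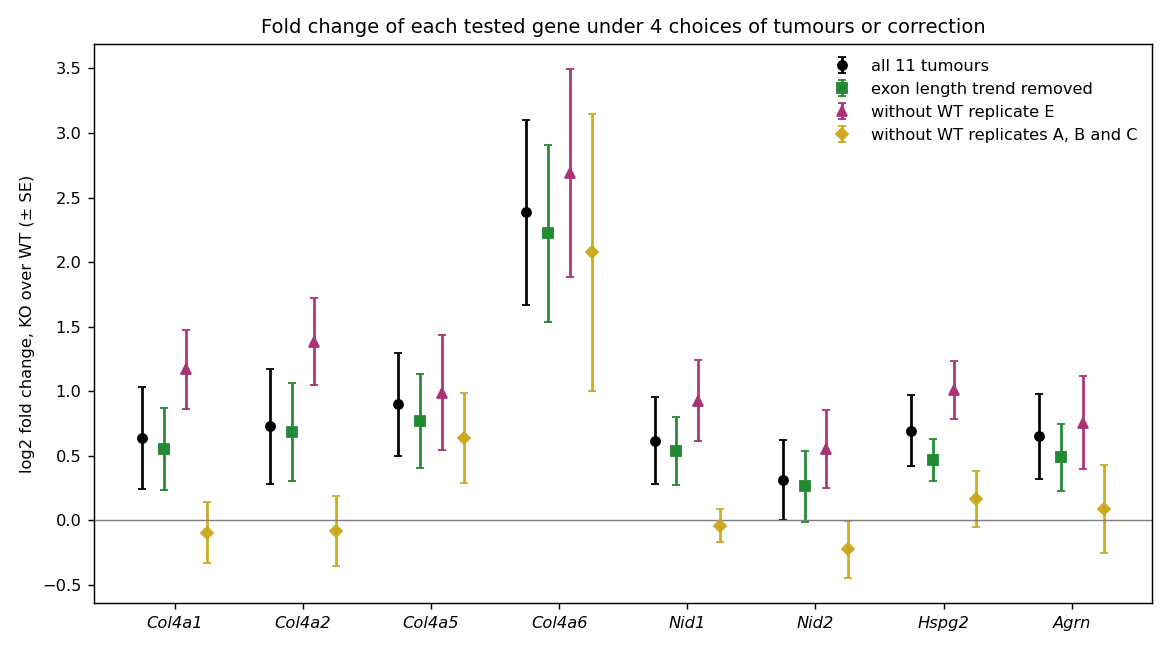
Log2 fold change of KO over WT (± SE) for the 8 tested genes with all 11 tumours, with the exon length trend removed, without WT replicate E, and without WT replicates A, B and C. Col4a1, Col4a2, Nid1 and Nid2 move from above 0 to below 0 when WT A, B and C are left out. Col4a5, Col4a6, Hspg2 and Agrn stay above 0 in all 4 fits.

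The spread among WT tumours was itself shared by many of these genes. Col4a1, Col4a2, Nid1, Nid2 and Hspg2 ranked the 5 WT tumours identically, with WT A lowest, then B, C and D, and E highest, an order that 2.49% of all tested genes had. With the length trend removed the order held for Col4a1, Col4a2, Nid1 and Nid2 but not for Hspg2, in which WT B then came after C and D. The highest over the lowest WT tumour was 7.76-fold for Col4a1, 10.2-fold for Col4a2 and 3.53-fold for Hspg2, against 1.39-fold, 1.49-fold and 1.68-fold among KO tumours. Removing the length trend narrowed the WT range of Hspg2 from 1.82 to 0.80 on the log2 scale but that of Col4a1 only from 2.96 to 2.42. Col4a6 had a wider log2 range in KO tumours (3.96) than in WT tumours (2.41), and with the length trend removed so did Agrn (1.51 against 1.07).

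Ratios within a tumour do not depend on library size, and they were compared for the head-to-head and related pairs. There were 0.571 to 0.655 counts of Col4a2 per count of Col4a1 in KO tumours, and 0.475, 0.458, 0.554, 0.545 and 0.625 in WT tumours A to E. Corrected for exon length, this was 0.644 to 0.739 in the KO group and 0.516 to 0.704 in the WT group. KO F had the highest ratio, and WT A to D lay below every KO tumour. The mean log2 ratio was -0.73 ± 0.068 (SD, n = 6) in KO and -0.92 ± 0.18 (n = 5) in WT, a difference of 0.19 (exact two-sided permutation test, p = 0.0390, adjusted p = 0.114 over the 3 pairs tested). WT E was the only WT tumour within the KO range, so leaving it out separates the groups fully and the resulting p-value is no support. The difference was then 0.25 (adjusted p = 0.0143, exact permutation test). Leaving out any 1 other tumour gave adjusted p-values of 0.0952 to 0.257 in that test. The difference of medians was 0.12 (exact permutation p = 0.0996, adjusted p = 0.149), and without WT A, B and C the difference of means was 0.047 (exact permutation p = 0.5).

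The log2 ratio of Nid2 to Nid1 was -3.15 ± 0.39 (n = 6) in KO and -2.75 ± 0.27 (n = 5) in WT, a difference of -0.40 (exact two-sided permutation test, p = 0.0758, adjusted p = 0.114). KO E had a ratio within the WT range and KO A the lowest of all. KO E was the only KO tumour within that range, so leaving it out separates the groups fully and the resulting p-value is no support. The difference was then -0.52 (adjusted p = 0.0238, exact permutation test). Leaving out any 1 other tumour gave adjusted p-values of 0.114 to 0.286 in that test. Without WT A, B and C the difference was -0.21 (exact permutation p = 0.464). With the length trend removed it was -0.31 (exact permutation p = 0.167, adjusted p = 0.25). The log2 ratio of Agrn to Hspg2 was 0.79 ± 0.67 in KO and 0.88 ± 0.47 in WT (difference -0.10, exact permutation p = 0.801, adjusted p = 0.801), and -0.16 without WT A, B and C (exact permutation p = 0.821).

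The other head-to-head pairs had under 10 counts of a gene in at least 1 tumour and their ratios were not tested. Col4a6 had 0.0168 to 0.210 counts per count of Col4a5 in the KO group and 0.0170 to 0.114 in the WT group. The neighbours on the X chromosome thus differed in level by a factor that itself varied over 10-fold between tumours, while the ratio of Col4a2 to Col4a1 stayed between 0.458 and 0.655 in all 11.

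**Figure D4:**
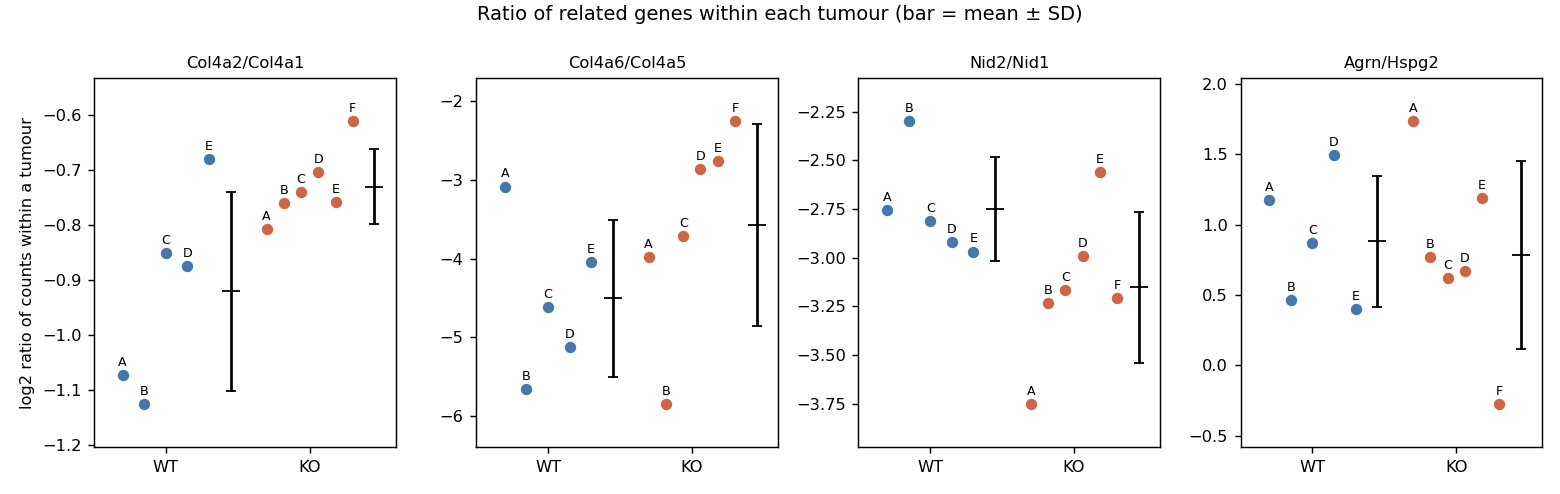
Log2 ratio of counts within each tumour for 4 gene pairs, with WT in blue, KO in orange, letters for replicates and black bars for the mean ± SD. WT A to D lie below every KO tumour for Col4a2 over Col4a1, while WT E lies within the KO range. The groups overlap for all 4 pairs.

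Across the 11 tumours, 4 pairs were correlated on the log2(CPM + 1) scale. Tumours share depth, RNA quality and cell makeup, and differ by genotype, so these values describe tumours. Col4a1 and Col4a2 had a Pearson's r of 0.997 (permutation test, p = 1e-05, the smallest that 100000 resamples can give, adjusted p = 4e-05) and a Spearman's correlation of 0.973 (permutation p = 1e-05). Without WT A and B, the tumours farthest from the median of Col4a1, r was 0.993. Within the 6 KO tumours r was 0.945 (exact permutation p = 0.00972, adjusted p = 0.0389) and fell to 0.584 without KO A and D.

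Col4a5 and Col4a6 had an r of 0.693 (permutation p = 0.0165, adjusted p = 0.0220) and a Spearman's correlation of 0.727 (permutation p = 0.0146). Without KO E and WT A r was 0.761, and within the 6 KO tumours it was 0.742 (exact permutation p = 0.114). With the genotype means removed r was 0.520 (permutation p = 0.102).

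For the other pairs the relation over all tumours was much weaker without WT A and B. Nid1 and Nid2 had an r of 0.862 (permutation p = 0.00238, adjusted p = 0.00476) and a Spearman's correlation of 0.591 (permutation p = 0.0607), but an r of 0.367 without WT A and B and of -0.365 within KO tumours (exact permutation p = 0.476). The KO value was 0.929 without KO C and E, and with the genotype means removed r over all tumours was 0.852 (permutation p = 0.00144). Hspg2 and Agrn had an r of 0.643 (permutation p = 0.0325, adjusted p = 0.0325) and a Spearman's correlation of 0.473 (permutation p = 0.147), but an r of 0.103 without those tumours and of -0.348 within KO tumours (exact permutation p = 0.489).

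**Figure D5:**
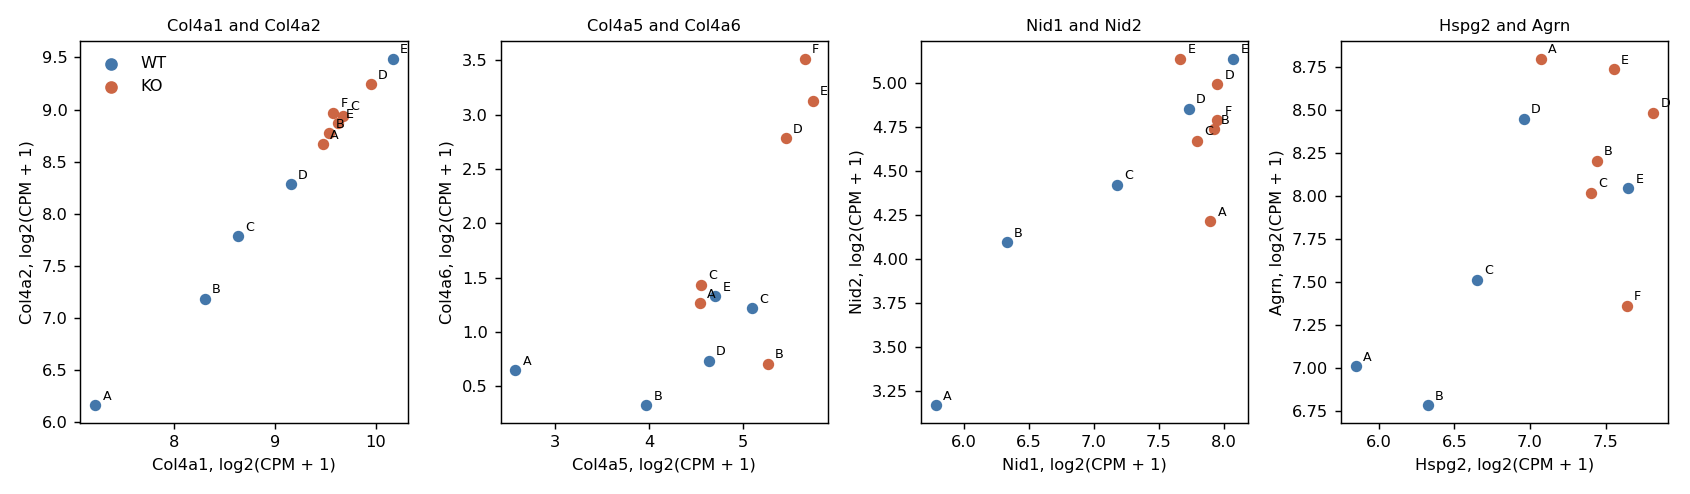
Log2(CPM + 1) of the members of 4 gene pairs plotted against each other, with 1 point per tumour, WT in blue, KO in orange and letters for replicates. Col4a1 and Col4a2 fall along a line through both groups, while for Nid1 with Nid2 and Hspg2 with Agrn the trend depends on WT A and B at the lower left.

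The genes most like Col4a1 over the 11 tumours, among 13370 protein-coding genes with a mean of at least 1 CPM, were Sntb2 (r = 0.983), Macf1 (0.976), Notch3 (0.975), Adam12 (0.970) and Tmem64 (0.962). Macf1 links actin to microtubules, Notch3 is a receptor of mural cells and Adam12 a metalloprotease. Like Col4a1, Notch3 was held in a narrow range in KO tumours (17.9 to 21.8 CPM) and ranged widely in WT tumours (2.82 to 28.9 CPM). Col4a6 was the tested gene least like Col4a1 (r = 0.520), and its own closest genes were Pcdh9 (0.929), Sort1 (0.908), Aoc1 (0.852), Enpp2 (0.835) and Klhl23 (0.832). Enpp2, which encodes the secreted enzyme autotaxin, was at 12.5 to 94.9 CPM in KO tumours and 3.21 to 14.3 CPM in WT tumours.

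The related lists are read against all tested genes, of which edgeR called 0.0181% higher and 0% lower, 8.57% were higher and 15.5% lower at an unadjusted p under 0.05, and 48.0% had a higher mean in KO (median -0.026). In the fit without WT A, B and C, 51.0% of 17605 genes had a higher mean in KO (median 0.011). The shares of all genes at an unadjusted p under 0.05 are not given for that fit, so counts at that level are left out for it. With the length trend removed, 48.2% of all genes had a higher mean in KO (median -0.019). Laminins form the other network of the basement membrane and are needed for its assembly at the cell surface. Of 11 laminin chains tested, edgeR called 0 at an adjusted p under 0.05, and at an unadjusted p under 0.05 2 were higher in KO and 0 lower, while 9 had a higher mean (median log2 fold change 0.37). The 2 were Lamb2, at 73.7 to 116 CPM in KO against 31.9 to 101 in WT tumours (0.67, SE 0.27, unadjusted p = 0.0263, edgeR adjusted p = 0.158), and Lamc1, the gamma chain of most laminins, at 129.9 to 249 against 36.5 to 181 CPM (0.80, SE 0.37, unadjusted p = 0.0499, edgeR adjusted p = 0.208). Without WT A, B and C, 4 of the 11 had a higher mean in KO and the median was -0.027. With the length trend removed, 7 did and the median was 0.16.

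Among 14 other basement membrane components tested of 16 listed, edgeR called 0, with 2 higher and 0 lower at an unadjusted p under 0.05, and 13 had a higher mean in KO (median 0.49). These were Ntn4, a netrin that binds laminin, at 28.1 to 50.6 CPM in KO and 17.8 to 36.4 in WT tumours (0.55, edgeR adjusted p = 0.163), and Fbln1, a fibulin, at 31.1 to 96.0 against 21.8 to 48.6 CPM (0.66, edgeR adjusted p = 0.165). Without WT A, B and C, 8 of the 14 had a higher mean and the median was 0.088. With the length trend removed, 13 did and the median was 0.31.

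The genes that modify, fold and crosslink type IV collagen gave 0 calls among 15, 3 higher and 0 lower at an unadjusted p under 0.05, and 12 with a higher mean (median 0.26). Plod1, a lysyl hydroxylase, was at 51.8 to 75.2 CPM in KO and 28.7 to 57.3 in WT tumours (0.59, edgeR adjusted p = 0.124). Pxdn, the peroxidase that forms the sulfilimine crosslink of the type IV network, was at 114 to 195 CPM in KO and 33.8 to 144 in WT tumours (0.88, edgeR adjusted p = 0.127). The remaining gene, named after its value was seen, was P3h1, a prolyl hydroxylase of collagen (0.49). Without WT A, B and C, 12 of the 15 had a higher mean and the median was 0.13. With the length trend removed, 12 did and the median was 0.19.

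Of 12 receptor genes tested of 13 listed, edgeR called 0, 3 were higher and 0 lower at an unadjusted p under 0.05, and 9 had a higher mean (median 0.37). Ddr1, a receptor kinase for collagens that include type IV, was at 125 to 206 CPM in KO and 84.9 to 141 in WT tumours (0.59, edgeR adjusted p = 0.108). Lrp4, the agrin receptor of the neuromuscular junction, was at 3.12 to 4.78 and 1.67 to 3.93 CPM (0.59, edgeR adjusted p = 0.194). Itgb1, the beta subunit of the laminin and collagen integrins, was also at an unadjusted p under 0.05 (0.52) and is named after its value was seen. Without WT A, B and C, 5 of 13 tested receptors had a higher mean and the median was -0.24. With the length trend removed, 8 of 12 did and the median was 0.26.

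Of 6 gelatinase and inhibitor genes tested of 7 listed, edgeR called 0, 3 were higher and 0 lower at an unadjusted p under 0.05, and 5 had a higher mean (median 0.70). Timp3, a matrix-bound inhibitor of metalloproteases, was at 347 to 734 CPM in KO and 119 to 368 in WT tumours (1.02, edgeR adjusted p = 0.0939). Mmp2, which cleaves type IV collagen, was at 214 to 627 and 109 to 417 CPM (1.03, edgeR adjusted p = 0.142). The other gelatinase, Mmp9, was likewise at an unadjusted p under 0.05 (0.95) and is named after its value was seen. Without WT A, B and C, 6 of the 6 had a higher mean and the median was 0.58. With the length trend removed, 6 did and the median was 0.60. Without WT E, edgeR called higher 2 laminin chains (Lama1 and Lama4), 1 other component (Col18a1), 3 assembly genes (Plod1, Pxdn and P3h1) and 2 genes of this list (Timp3 and Mmp2), in a fit that called 3.63% of all genes higher. The WT group of that fit was WT D with WT A, B and C. DESeq2 on all tumours called Ddr1 and Timp3 higher, against 3.19% of all genes. Lama1, Lama4 and Col18a1 are named after their values were seen.

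Markers of the cells that make basement membrane were summed per tumour. All listed markers of endothelial, mural, fibroblast and carcinoma epithelial cells were detected in every tumour, and the summed levels overlapped between the groups for each list. The 10 endothelial markers summed to 229.9 to 324 CPM in KO and 159.8 to 322 CPM in WT tumours, the 8 mural markers to 282 to 376 and 194 to 458, and the 8 fibroblast markers to 2849 to 6115 and 1756 to 6313. The 8 carcinoma epithelial markers summed to 2483 to 4873 and 3064 to 8039 CPM, with 7 of 8 lower on average in KO and 3 of them at an unadjusted p under 0.05, against 15.5% of all tested genes (edgeR called 0). Of the endothelial markers, Egfl7 (-1.03) and Cldn5 (-1.03) were lower and Erg (1.06) higher at that level, and of the acinar markers Cela1 (-1.96) was lower, with edgeR calling 0. These 4 are named after their values were seen. In WT tumours A to E, in order of their Col4a1 level, the fibroblast sums were 1756, 2952, 3232, 2096 and 6313 CPM, the mural sums 212, 206, 297, 194 and 458, the endothelial sums 252, 221, 322, 159.8 and 319.5, and the epithelial sums 8039, 3064, 6369, 5430 and 4889. WT E had the highest mural and fibroblast sums of all 11 tumours, whereas WT D, second among WT in Col4a1, had the lowest mural and endothelial sums. Markers of pancreatic acinar cells summed to 1722 CPM in WT E and to 617 CPM in KO E, against 7.25 to 183 CPM in the other tumours. The sums of adipocyte, mesothelial, smooth muscle and Schwann cell markers overlapped between the groups too. Of 5 tested adipocyte markers, 4 had a higher mean in KO and Cidec a lower one (-0.69). At an unadjusted p under 0.05, 2 of the 5 were higher, against 8.57% of all tested genes, while edgeR called 0. The part of cell makeup in the differences of the basement membrane genes was not tested.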

How the data were processed

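RNA from a portion of each tumour, kept in RNAlater, was made into strand-specific libraries and sequenced in paired ends. The authors trimmed reads with Trimmomatic, aligned them to GRCm38 (mm10) with HISAT2 2.1.0 and counted uniquely aligned reads per gene with HTSeq 0.11.2. The raw count per gene is the main deposited value. The normalised values, a signal that the authors deposited, equal these counts divided by 1 size factor per tumour, and were used in 1 alternative. Of 54232 identifiers, 54165 matched GENCODE M21, the source of symbols, coordinates and exon length. Opposite-strand exons overlap some of the genes, but none on the same strand.

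Groups come from the labels, which give no sequencing batch. KO was compared with WT in edgeR 4.0.16 (R 4.3.3: TMM, filterByExpr, quasi-likelihood F-test, all 11 tumours), with Benjamini-Hochberg adjustment over 16536 genes and a threshold of 0.05. SE is the log2 fold change over the square root of F. Ratios added 0.5 counts to each gene and were compared over the 462 splits of the tumours (smallest p 0.00216). Correlations used permutation (scipy 1.17.1 for ranks). The edgeR code was tested on simulated data with 200 changed genes among all those tested. It recovered 61 of them at a log2 change of 1 and 188 at a log2 change of 2. A result of 0 calls therefore does not show that changes of about 1 or less were absent. Alternatives were DESeq2 1.42.0 and its size factors, other filters, a lowess correction for length (span 0.3), covariates and left-out tumours. The floors cover counting error only, whereas the SD and SE values include the spread between tumours. The least different pair of libraries had a chi-square of 33.9 per degree of freedom, so each counted as 1 sample.

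The genes, related lists and markers were chosen with earlier results of these data known. All 10 genes are named. Of each list, the genes past the threshold are named, otherwise the 2 with the smallest p in each direction among those at an unadjusted p under 0.05. Of the genes most like Col4a1 and most like the tested gene least correlated with it, 5 each are named.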

Additional observations from a re-analysis of the deposited data

How the results depend on the processing

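The number of the 8 tested genes called higher in KO was 0 in the main comparison, 1 with DESeq2 and 0 to 3 when 1 tumour was left out, the 3 being without WT E. Leaving out 1 tumour gave 0 to 2 laminin chains, 0 to 1 other components, 0 to 3 assembly genes and 0 to 2 gelatinase genes called higher, and DESeq2 called 1 receptor and 1 gelatinase or inhibitor gene. Leaving out WT A, B and C together turned Col4a1 to -0.10, Col4a2 to -0.081, Nid1 to -0.042 and Nid2 to -0.22 on the log2 scale, and the cause was not tested. The difference in log2 ratio ranged over left-out tumours from 0.14 to 0.25 for Col4a2 over Col4a1 and from -0.52 to -0.28 for Nid2 over Nid1. For Agrn over Hspg2 it ranged from -0.29 to 0.12, and it was above 0 without KO F (0.12) or without WT D (0.058). The correlation of Col4a5 with Col4a6 was 0.520 with genotype means removed, and that of Hspg2 with Agrn was 0.231 with the length trend removed and 0.452 with genotype means removed. Col4a6 could not be tested with at least 10 counts required in every tumour.

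With the replicate letter as a replicate block, 0 of the 8 genes were called higher and 0 lower, and 6 were higher at an unadjusted p under 0.05. Their adjusted p-values in that edgeR fit were 0.269 to 0.348 over the 8 genes. The share of all genes at that unadjusted level is not given for this fit, so the 6 cannot be set against it. The letters belong to different mice, and the deviations of same-letter tumours correlated at 0.109, 0.0752, -0.129, 0.0921 and 0.0293 for A to E, so they were not taken as pairs.

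Leaving out WT A, B and C for the ratios and lists was chosen after seeing the data. The main comparison had 0 calls among these ratios and lists, so the 0 calls without those tumours are no test of robustness. The median log2 fold change went from 0.37 to -0.027 for laminin chains and from 0.37 to -0.24 for receptors. It stayed above 0 for the other related lists. The differences in log2 ratio kept their sign, at 0.047 for Col4a2 over Col4a1, -0.21 for Nid2 over Nid1 and -0.16 for Agrn over Hspg2. RNA integrity values were not analysed here. Col4a3 and Col4a4 lay at the limit of depth.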
